A study of Mus musculus with 6 samples.

Results

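NADPH oxidase subunits were examined in mouse liver as the 7 genes Noxa1, Noxo1, Nox4, Cyba, Cybb, Ncf1 and Ncf4. They were found on the arrays as every probe, control spots aside, that the scanner files name for one of these genes, which gave 10 probes among 41174. Cybb, Ncf1 and Nox4 had 2 probes each and the other 4 genes had 1. All 10 probes lay well above background on all 6 arrays, so all 7 genes were among the 18901 that passed the filter on dim probes. The 7 genes were chosen by their log2 signals on these same arrays, MC-LR against control. Their differences between the groups are therefore descriptions, given without a test.

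From 6 mice, 1 liver sample each was profiled on its own single-colour Agilent array. All came from male BALB/c mice that entered the study at 6 weeks of age. In the MC-LR group, 3 independent mice drank water holding 100 µg/L of microcystin-LR over 12 months. In the control group, 3 independent mice drank sterile water over the same time. Microcystin-LR, made by cyanobacteria, enters hepatocytes and blocks serine/threonine protein phosphatases. A single dose and a single time were measured, in whole liver, so fewer cells of a type and less RNA per cell cannot be told apart.

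NADPH oxidases are membrane enzymes that pass electrons from NADPH to oxygen and so make superoxide or hydrogen peroxide on purpose. The phagocyte enzyme consists of the catalytic subunit gp91phox (Cybb, also called NOX2) and its membrane partner p22phox (Cyba), to which cytosolic subunits, among them p47phox (Ncf1) and p40phox (Ncf4), and the GTPase Rac move upon activation. Noxo1, a relative of p47phox, organises the epithelial enzyme NOX1, and Noxa1 activates it. Nox4 encodes a catalytic subunit that works with p22phox without the cytosolic subunits. In liver, the phagocyte enzyme is known mainly from Kupffer cells and infiltrating leukocytes, and Nox4 from hepatocytes and stellate cells.

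In the files' mm9 coordinates 4 of the 10 probes span more than their 60 bases, as probes across a splice junction do, and their sequences are shown because they carry all values of Noxa1 and Cyba and give a second reading of Cybb and Nox4, for which the brighter probe stood for the gene. The Noxa1 probe ran over chr2:24942236-24942459 on the minus strand, with a gap of 164 bases inside that span. The Cyba probe ran over chr8:124950893-124951161 on the minus strand, the Cybb probe over chrX:9019758-9021685 on the minus strand and the Nox4 probe over chr7:94472458-94487478 on the plus strand. The other 6 probes each matched 1 unbroken stretch of the genome.
Noxa1: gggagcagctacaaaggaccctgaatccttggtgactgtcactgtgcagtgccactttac
Cyba: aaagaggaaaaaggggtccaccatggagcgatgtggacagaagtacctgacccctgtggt
Cybb: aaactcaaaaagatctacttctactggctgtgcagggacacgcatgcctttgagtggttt
Nox4: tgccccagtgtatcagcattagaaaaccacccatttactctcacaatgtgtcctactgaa

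Slide 1 carried controls 1 and 2, and slide 2 carried control 3 together with all 3 arrays of exposed mice, so a within-slide value sets these 3 against control 3 alone. With 1 control on slide 2, such a value carries no spread among controls. On slide 1, 68.3% and 64.9% of spots lay well above background in controls 1 and 2. On slide 2 the share was 73.7% in control 3, and 71.1%, 73.4% and 72.5% in MC-LR 1, 2 and 3. Saturated spots numbered 0, and the number of arrays limits the precision. On the first principal component (36.5% of the variance) controls 1 and 2 lay at -31.0 and -37.1, below every array of slide 2. Control 3 lay at 40.4, and MC-LR 1, 2 and 3 at 6.9, 25.2 and -4.5. The hepatocyte markers Alb, Apoa1, Ttr, Tat, Cps1 and Hnf4a were all well above background on every array, and their summed signal was 450513 to 473504 in controls and 464320 to 475728 with MC-LR.

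Noxa1, the activator subunit of NOX1, had the largest difference between the groups among the 7 members. Its normalized log2 signal was 9.18, 7.60 and 6.21 in controls 1, 2 and 3, and 5.60, 5.37 and 4.74 in MC-LR 1, 2 and 3. Every control lay above every MC-LR array, by 0.61 at the narrowest point, between control 3 and MC-LR 1. Controls averaged 7.66 ± 1.49 and exposed livers 5.24 ± 0.44 (log2, SD, n = 3 each). The MC-LR minus control difference was -2.43 ± 0.73 (log2, SE), which is 5.38-fold. Noxa1 was the only one of the 7 members whose groups did not overlap, and 20.5% of all 18901 genes also had groups that did not overlap.

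The size of the Noxa1 difference rested on the slide 1 controls and on the background correction. The 3 controls spanned 2.97 on the log2 scale, more than the difference between the groups. Within slide 2, against control 3 alone, the difference was -0.97 (log2). Slide as a fixed block gives this same difference, because slide 1 holds controls only, and its SE was 0.67. With slide as a random block the difference was -1.81 ± 0.74 (log2, SE). Leaving out control 3, after which the slides hold 1 group each, it was -3.15 ± 0.53, and without control 1 it was -1.67. With normexp background correction it was -1.20 ± 0.46. This alternative starts from the mean spot intensity and the local background instead of the processed intensity. It also adds a constant (offset 50), which shrinks differences between dim signals. The parts of these 2 changes were not separated.

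**Figure D1:**
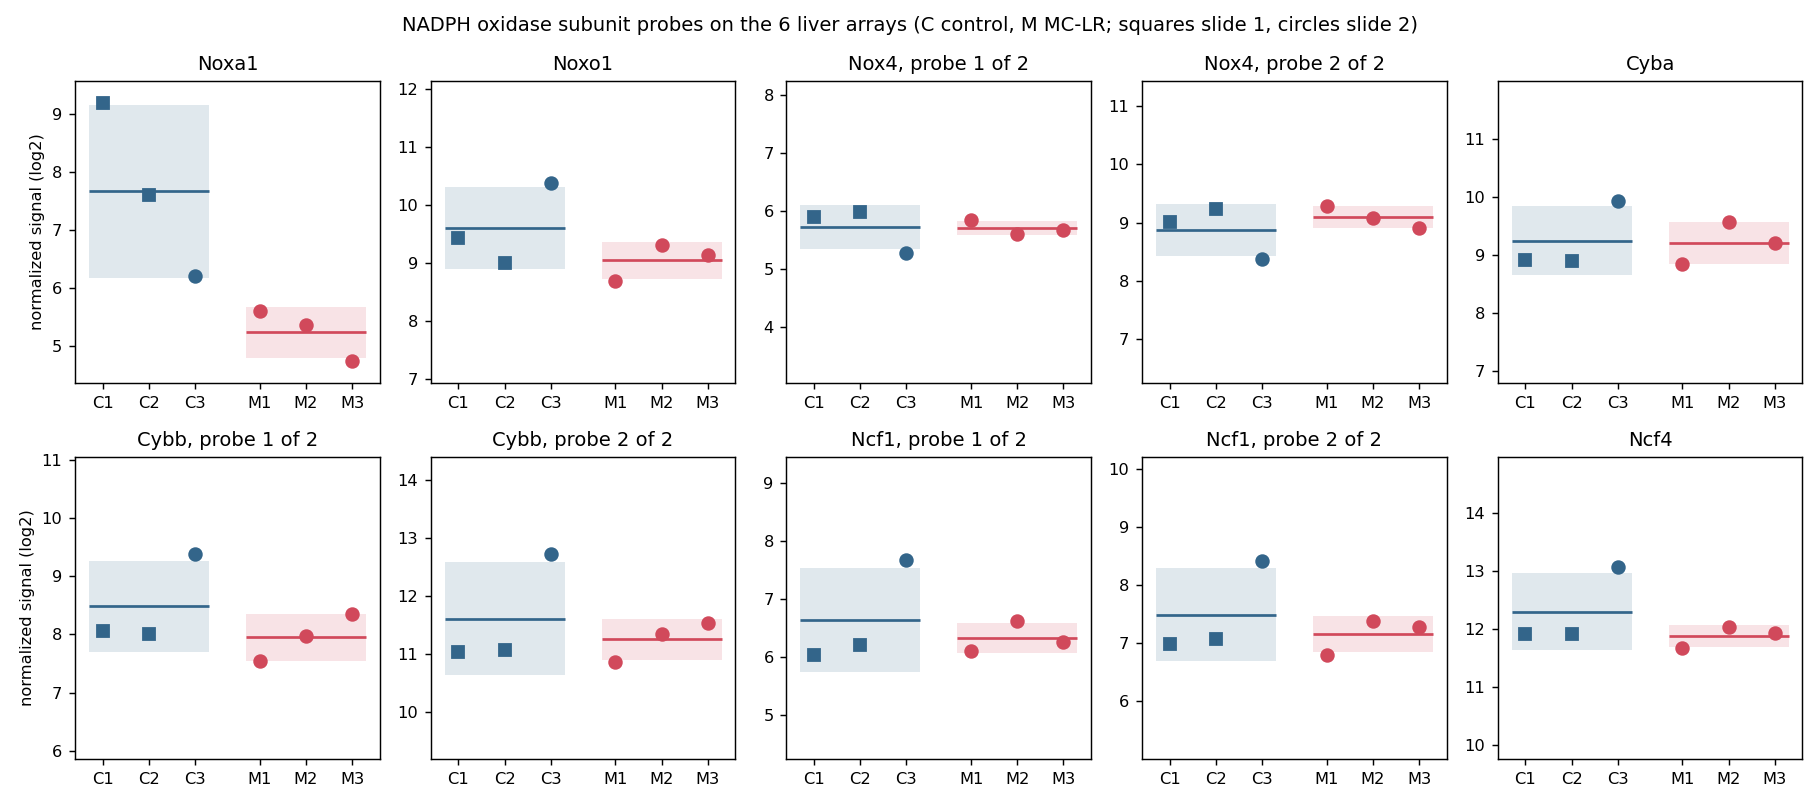
Normalized log2 signal of the 10 probes of the 7 NADPH oxidase subunit genes on the 6 arrays, each panel spanning 5.2 log2 units. C1 to C3 are controls and M1 to M3 MC-LR arrays, squares are slide 1 and circles slide 2, lines are group means and shaded bands ± 1 SD. Noxa1 is lower on all MC-LR arrays, while Noxo1, Cyba, Cybb, Ncf1 and Ncf4 are highest in control 3 and Nox4 is lowest there.

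Noxo1, the organiser subunit that pairs with Noxa1 in the NOX1 enzyme, followed another pattern. Its log2 signal was 9.43, 9.001 and 10.38 in controls 1, 2 and 3, and 8.69, 9.30 and 9.14 in MC-LR 1, 2 and 3. Control 3 was the highest array, and controls 1 and 2 lay within or just above the MC-LR range. The means were 9.60 ± 0.70 and 9.04 ± 0.32 (log2, SD, n = 3), a difference of -0.56 ± 0.37 (SE). It was -1.33 within slide 2, against control 3 alone, and -0.17 ± 0.24 without control 3. Control 3 was the lowest control for Noxa1 and the highest for Noxo1. Nox1 itself, the catalytic subunit that both serve, was well above background on 0 of the 6 arrays, as was Nox3, the catalytic subunit of the inner ear.

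Nox4, the catalytic subunit that needs no cytosolic partner, was the only member with a higher mean after MC-LR. The brighter of its 2 probes read 9.02, 9.23 and 8.38 in controls 1, 2 and 3, and 9.29, 9.07 and 8.91 in MC-LR 1, 2 and 3. The groups overlapped, and control 3 was the lowest array. The difference was 0.22 ± 0.24 (log2, SE), with means of 8.88 ± 0.44 in controls and 9.09 ± 0.19 with MC-LR (SD, n = 3). The dimmer, junction-spanning probe differed by -0.01 ± 0.21 and also had its lowest value, 5.29, in control 3. Without control 3 the brighter probe differed by -0.03 ± 0.15, and within slide 2, against control 3 alone, by 0.71.

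For the phagocyte subunits, control 3 was the array that stood apart. Cybb, the catalytic gp91phox, read 11.03, 11.06 and 12.73 in controls 1, 2 and 3, and 10.87, 11.35 and 11.54 in MC-LR 1, 2 and 3 (log2 signal, brighter probe). Control 3 lay above all other arrays, and controls 1 and 2 lay within the MC-LR range. Its junction-spanning probe gave the same order of control 3 over the rest, at 9.38 against 7.54 to 8.35 on the other 5 arrays. The MC-LR minus control difference of the 2 probes was -0.35 ± 0.49 and -0.53 ± 0.42 (log2, SE).

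Cyba, which encodes p22phox and stabilises both gp91phox and NOX4, read 8.92, 8.89 and 9.94 in controls 1, 2 and 3, and 8.85, 9.58 and 9.22 in MC-LR 1, 2 and 3. Its group means were nearly level, 9.25 ± 0.60 and 9.22 ± 0.36 (log2, SD, n = 3), and differed by -0.03 ± 0.34 (SE). Control 3 was again the highest array, although MC-LR 2 came within 0.36 of it.

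Ncf1, the organiser p47phox, read 6.99, 7.06 and 8.41 in controls 1, 2 and 3, and 6.80, 7.38 and 7.27 in MC-LR 1, 2 and 3 with its brighter probe. The dimmer probe stood at 7.66 in control 3 and between 6.03 and 6.62 elsewhere. Both probes therefore placed control 3 above every other array, with MC-LR minus control differences of -0.34 ± 0.41 and -0.31 ± 0.44 (log2, SE). Ncf4, the p40phox subunit that binds phosphatidylinositol 3-phosphate on phagosomes, read 11.91, 11.92 and 13.06 in controls 1, 2 and 3, and 11.67, 12.04 and 11.93 in MC-LR 1, 2 and 3. Its difference was -0.42 ± 0.34 (log2, SE), and the 5 arrays other than control 3 lay within 11.67 to 12.04.

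Control 3 exceeded the mean of controls 1 and 2 by 3.21-fold for Cybb, 2.61-fold for Ncf1, 2.24-fold for Noxo1, 2.22-fold for Ncf4 and 2.05-fold for Cyba. These 5 members all had their highest value in control 3, as did 21.1% of all genes. For Cybb, Ncf1 and Ncf4 control 3 lay more than 2-fold above each of the other 5 arrays, which held for 0.931% of all genes. Noxo1 fell just short of that mark, at 0.95 on the log2 scale above the next array. Both comparisons of control 3 were chosen after the values were seen, and no test was made of them. MC-LR 1 was the lowest of the 6 arrays for these 5 genes, except with the dimmer Ncf1 probe, which was lowest in control 1.

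**Figure D2:**
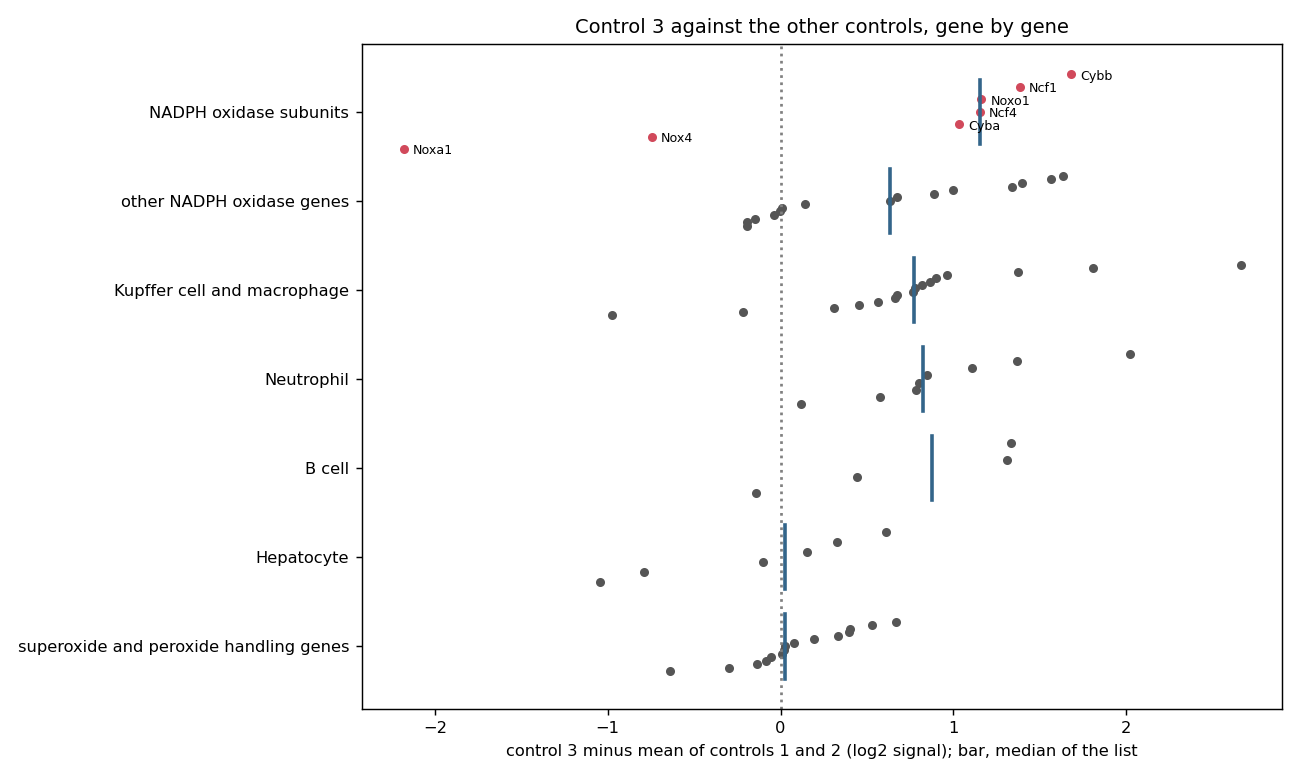
Control 3 minus the mean of controls 1 and 2 (log2 signal, x axis) for each measured gene of 7 gene lists, with 1 point a gene and a blue bar at the list's median. The subunits except Noxa1 and Nox4 lie between 1.03 and 1.68, the leukocyte marker lists have medians of 0.77 to 0.88, and hepatocyte and peroxide handling genes have medians of 0.03. Not drawn are the cholangiocyte, the stellate cell and fibroblast, and the endothelial markers, with medians of 1.16, 0.48 and 0.06.

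Leaving control 3 out turned the direction of 4 members. Without it, Cyba differed by 0.31 ± 0.22, Cybb by 0.21 ± 0.22 and Ncf1 by 0.13 ± 0.20 (MC-LR minus control, log2, SE), while Nox4 moved to -0.03. Ncf4 moved to -0.03 ± 0.14. Within slide 2, where control 3 is the only control, the differences were -1.48 for Cybb, -1.26 for Ncf1, -1.18 for Ncf4 and -0.72 for Cyba. These are distances from 1 control liver and carry no spread among controls. The median over the 7 members was -0.35 with all arrays, -1.18 within slide 2 and -0.03 when control 3 was left out. The median over all genes was -0.01, 0.02 and -0.01 in the same settings. Cyba also turned, to 0.15, without MC-LR 1.

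**Figure D3:**
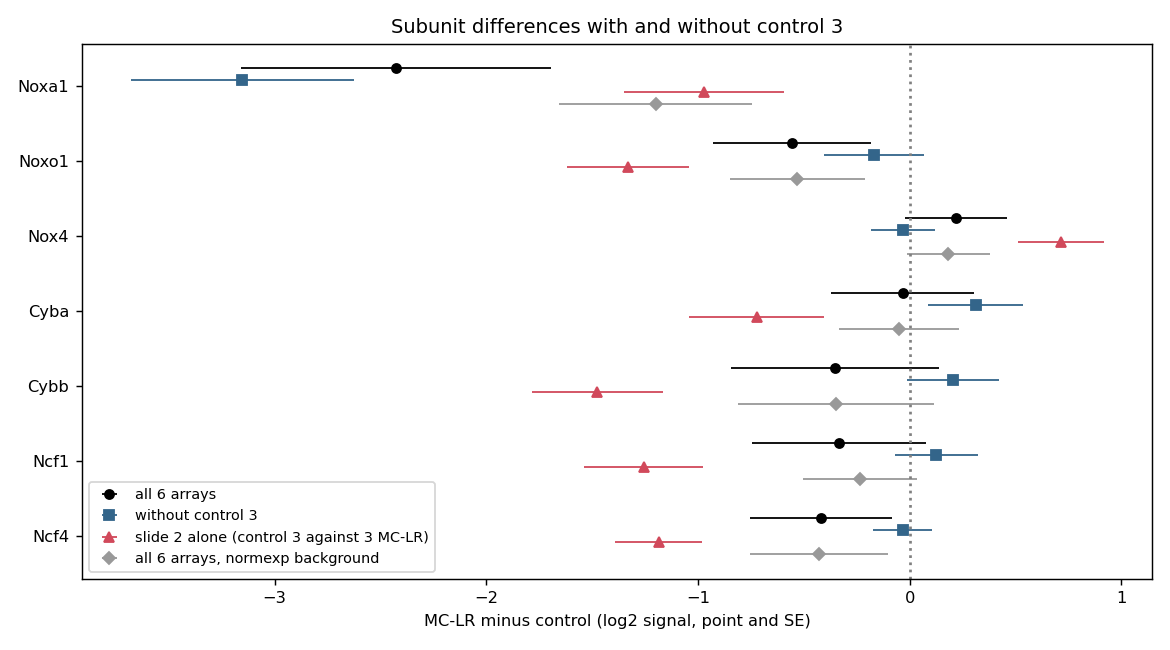
MC-LR minus control difference of each subunit gene (log2 signal, point and SE, x axis) with all 6 arrays, without control 3, within slide 2 and with normexp background correction. Noxa1 stays below 0 throughout, from -3.15 to -0.97, while Cyba, Cybb and Ncf1 lie below 0 within slide 2 and above 0 without control 3. The SE drawn for slide 2 holds no spread among controls, since control 3 is the only control there.

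Markers of the cells that carry the phagocyte enzyme moved with the same liver. Of 16 Kupffer cell and macrophage markers, all of them measured, 14 were highest in control 3. Their summed signal was 172236 to 306560 in controls, the upper value being control 3, and 148425 to 192009 with MC-LR (exact permutation p = 0.5, two-sided, where 3 against 3 cannot go below 0.1). The log2 ratio of the sums, MC-LR over control, was -0.35, and -0.043 without control 3. Itgam, an integrin alpha chain of myeloid cells, stood at 7.69 in control 3 and between 5.66 and 6.29 elsewhere (log2), and Adgre1, an adhesion receptor used to mark mouse macrophages, at 13.11 against 11.14 to 11.88. Clec4f, a lectin restricted to Kupffer cells, did not share this, at 13.09 in control 3 against 13.35 and 13.27 in controls 1 and 2. Clec4f and Cd163, a haemoglobin scavenger receptor, were the 2 macrophage markers not highest there. These genes were named after their values were seen.

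Most neutrophil and B cell markers were also highest in control 3. Of 11 neutrophil markers 8 passed the filter and 6 of these were highest in control 3. Their summed signal was 7910 to 13319 in controls and 3592 to 9863 with MC-LR (exact permutation p = 0.3). Among the defining markers Elane was well above background on 2 of the 6 arrays and Ngp on 4, and Ly6g is not analysed here. The 4 B cell markers summed to 926 to 2480 in controls and 819 to 1790 with MC-LR (exact permutation p = 0.8), with 3 of 4 highest in control 3. Against the mean of the other 5 arrays, control 3 was 1.74-fold, 1.91-fold and 1.96-fold higher in the macrophage, neutrophil and B cell sums, 0.987-fold in the hepatocyte sum, and 2.94-fold for Cybb. This ratio was 1.41-fold in the cholangiocyte sum, 1.26-fold in the stellate cell and fibroblast sum and 0.970-fold in the endothelial sum. A higher sum in control 3 was therefore not particular to leukocyte markers. Alb was the brightest gene of the hepatocyte sum, and single hepatocyte markers did vary by liver. Against the mean of controls 1 and 2, control 3 differed by -1.05 for Apoa1, an apolipoprotein, by -0.79 for Ttr, transthyretin, and by 0.61 for Tat, tyrosine aminotransferase (log2). Their part in the subunit values was not tested.

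Stellate cell and fibroblast markers, relevant to Nox4, summed to 55971 to 72693 in controls and 53161 to 66905 with MC-LR (8 of 8 measured; exact permutation p = 0.5). Endothelial markers summed to 5931 to 7313 in controls and 4980 to 5744 with MC-LR (5 of 5; exact permutation p = 0.1, the smallest possible). Cholangiocyte markers summed to 757 to 1206 and 694 to 945 (4 of 5; exact permutation p = 0.2), with Cftr below the filter. The stellate sum is carried by its brightest gene, Dcn, a matrix proteoglycan, and single markers differed from it. Lrat, the retinol-esterifying enzyme of stellate cells, read 7.05, 6.81 and 8.06 in controls 1, 2 and 3 and 8.07, 8.24 and 8.45 with MC-LR, a difference of 0.95 ± 0.33 (log2, SE; adjusted p = 0.344, limma). Hand2, a transcription factor of stellate cells, differed by 0.55 ± 0.27 (adjusted p = 0.446, limma). The other 6 of the 8 markers, Dcn among them, were lower with MC-LR, by -0.33 to -0.01, and the median of the list was -0.05. Dcn, Lrat and Hand2 were named after their values were seen, and their part in the Nox4 values was not tested.

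Other genes of the pathway were described from a separate list. Of 17 genes for other catalytic subunits, partners and regulators, 15 passed the filter, and 0 passed in either direction after adjustment over all genes (limma, threshold 0.05), with 1 at an unadjusted p under 0.05. That last count was 7 of 15 with slide as a fixed block, beside 3041 of all 18901 genes. Without control 3 it was 3 of 15, a share close to the 3930 of 18901 over all genes. The count among the 15 was 0 when control 1, control 2, MC-LR 1 or else MC-LR 3 was left out. The counts over all genes were then 1353, 1684, 1377 and 2273. In the main comparison 3 of all 18901 genes were called, 0.0159%, all higher with MC-LR, and 2432 had an unadjusted p under 0.05. The median difference over the 15 was -0.16, against -0.01 for all genes tested. It was -0.47 within slide 2 and turned to 0.11 without control 3.

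Of these 15 genes, 8 had their highest value in control 3, among them Rac2, Vav1, Arhgdib, Rap1a, Prkcd, Duoxa2 and Sh3pxd2b. Rac2, the Rac GTPase of blood cells, read 10.90, 10.74 and 12.45 in controls 1, 2 and 3, and 10.76, 11.22 and 10.93 in MC-LR 1, 2 and 3 (log2). Vav1, a Rac exchange factor of blood cells, read 9.24 in control 3 and Arhgdib, a GDP dissociation inhibitor of leukocytes, 12.25, each above its other 5 arrays. Rac1, the ubiquitous Rac, stayed within 12.76 to 12.95 on all arrays. The genes of this paragraph were named after their values were seen. Cybc1, needed for gp91phox and p22phox to mature, was also measured, at 10.55 in control 3 and in MC-LR 3 and 9.54 to 9.99 elsewhere.

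Duox1 and Duox2, which encode the dual oxidases that release hydrogen peroxide at epithelial surfaces, had the smallest p-values of the list. Duox1 read 6.85, 6.86 and 6.85 in controls and 7.36, 7.01 and 7.22 with MC-LR, a difference of 0.34 ± 0.12 (log2, SE; adjusted p = 0.334, limma). Its groups did not overlap, and it did not pass the threshold. Within slide 2, against control 3 alone, it differed by 0.34, a value that carries no spread among controls, and with normexp by 0.21. Duox2 differed by 0.28 ± 0.13 (adjusted p = 0.433, limma), and by 0.11 with normexp.

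For enzymes that remove superoxide and hydrogen peroxide, the counts and the median changed with the probes that stood for a gene. Of 15 superoxide dismutases, catalase, glutathione peroxidases, peroxiredoxins and thioredoxin genes, all measured, 0 passed in either direction after adjustment (limma). With the brightest passing probe for each gene, 0 also had an unadjusted p under 0.05 (limma). By sign, 6 were higher and 9 lower with MC-LR, with differences from -0.13 to 0.23 and a median of -0.01. With the mean of a gene's probes the median was 0.08, and 2 of the 15 had an unadjusted p under 0.05. That share was close to the 2402 of 18901 over all genes. With every probe by itself the median was 0.14, and 5 of 23 probes had such a p, beside 3689 of 28488 over all probes. Prdx3, the mitochondrial peroxiredoxin, and Prdx6, a peroxiredoxin that also acts as a phospholipase, had the smallest p-values, with differences of 0.15 ± 0.08 and 0.23 ± 0.12 (log2, SE; adjusted p = 0.488 and 0.495, limma). Prdx6 differed by 0.39 with the mean of its probes (adjusted p = 0.307, limma).

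Circadian clock genes are set beside Noxa1 because they also varied by liver in these data. Arntl, which encodes the clock activator BMAL1, read 10.39, 9.56 and 8.20 in controls 1, 2 and 3, and 5.61, 5.84 and 7.65 with MC-LR. Like Noxa1, Arntl was highest in control 1, followed by controls 2 and 3 and then by all MC-LR arrays, but among those MC-LR 3 was the highest for Arntl and the lowest for Noxa1. Ciart, a clock repressor, ran the other way, at 1.19, 1.25 and 4.79 in controls and 8.81, 8.55 and 6.83 with MC-LR, and was well above background on 1 of the 3 controls. Of 19 clock genes 0 passed over all genes (limma), 13 had an unadjusted p under 0.05, beside 2432 of all 18901 genes, and the median difference was 1.07. With slide as a fixed block 6 had an unadjusted p under 0.05, beside 3041 of all genes. The Arntl difference then moved from -3.02 to -1.83 and that of Ciart from 5.65 to 3.27. Slide 2 alone gives the same differences as this block, because slide 1 holds controls only. Hlf and Cry2, a clock output factor and a clock repressor, had the smallest p-values, with differences of 0.99 ± 0.16 and 1.21 ± 0.21 (log2, SE; adjusted p = 0.171 and 0.211, limma). The size of the Ciart difference is not well determined, since it was 5.65 (log2) as processed here and 2.01 with normexp. Without control 3 it was called (adjusted p = 0.0452, limma; range over its alternatives 0.0452 to 0.666), but against controls 1 and 2 alone, whose values lie near the floor, so no size is given. The part of the clock in the Noxa1 values was not tested.

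The genes with the profile most like Noxa1 were found by the root mean square distance between log2 profiles over the 6 arrays, each centred on its own mean, so the likeness described here is what chose them. They were Chrm3, a muscarinic acetylcholine receptor (distance 0.56), Slc30a10, a manganese exporter (0.65), Ppp1r3c, which brings protein phosphatase 1 to glycogen (0.67), Clpx, a mitochondrial protein unfoldase (0.70), Asap2, an Arf GTPase-activating protein (0.71), and Cldn1, a tight junction protein (0.75). All 6 had higher values in controls 1 and 2 than in control 3, and control 3 minus their mean was -2.57 to -0.999 on the log2 scale, against -2.18 for Noxa1. Their MC-LR minus control differences ran from -2.34 for Chrm3 to -1.17 for Ppp1r3c, all smaller than that of Noxa1.

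**Figure D4:**
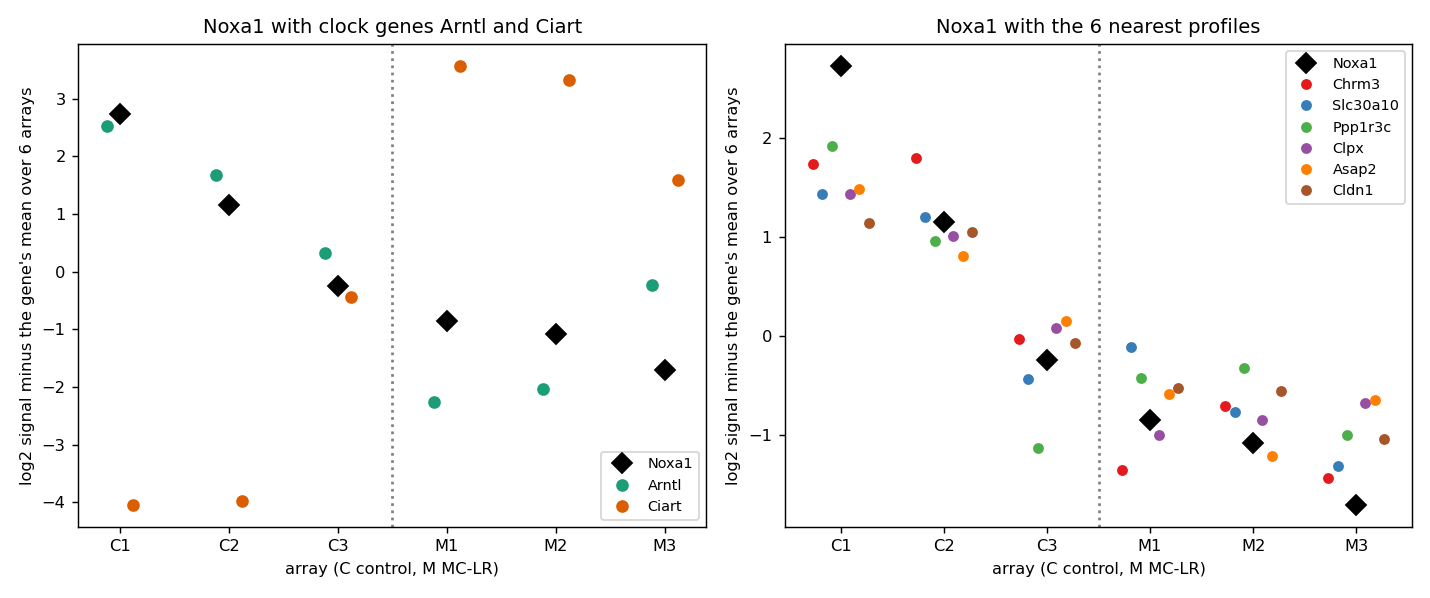
Log2 signal of Noxa1 on the 6 arrays, each gene centred on its own mean (y axis), beside the clock genes Arntl and Ciart on the left and the 6 genes with the nearest profiles on the right. Noxa1 and Arntl are highest in control 1 and Ciart is lowest there, and the nearest profiles separate controls 1 and 2 from the other 4 arrays.

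The same search, which again fixes the likeness, was made for Noxo1, the member with the next largest difference. It gave Mgp, the matrix Gla protein (distance 0.09), Ctsg, the neutrophil and mast cell protease cathepsin G, Ninl, a centrosomal protein, Mx1, an interferon-induced GTPase, Tpm4, a tropomyosin, and Epb41l1, a membrane skeleton protein (0.14). Control 3 exceeded the mean of controls 1 and 2 by 0.88 to 1.14 on the log2 scale for these 6 genes, and by 1.16 for Noxo1. Mgp, for example, read 9.70, 9.54 and 10.64 in controls 1, 2 and 3, and 9.04, 9.68 and 9.44 with MC-LR.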

How the data were processed

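Per the submitters' processing notes, the authors extracted spot intensity values with Agilent Feature Extraction 10.7. The scanner's processed intensity has had background and spatial trend removed, per the file headers, whereas the mean and local background intensity have not. The authors' deposited log2 values were quantile normalized in GeneSpring, per the series' design text. For the members these differed by at most 0.00245 from the values used here and served as an alternative.

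Outlier spots were dropped, signals were floored at 1 and put on the log2 scale, replicate spots were averaged per probe, and quantile normalization followed. A probe was kept if well above background on all 3 arrays of a group (28488 probes). Names came from RefSeq accessions in a GRCm38.p6 table (27668 probes), then symbols or synonyms (6060), then the file (7446). The passing probe with the highest mean stood for its gene. The comparison used limma 3.58.1 (R 4.3.3, two-sided, 4 residual and 2.05 prior degrees of freedom) and Benjamini-Hochberg adjustment over 18901 genes, threshold 0.05. The steps were tested on simulated data.

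The members and gene lists were chosen with earlier results of these data known. The naming rule covers all members, the 2 genes with the smallest p of each pathway list, Arntl and Ciart, and the 6 nearest profiles of the 2 members with the largest difference; others are marked. Alternatives were 75th percentile scaling, normexp (offset 50), the deposited values, other filters and probe rules, a replicate block, slide as a block (fixed or random), the arrays of slide 2 by themselves, and each array left out. Counts of genes highest in control 3 were added after seeing the data.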

Additional observations from a re-analysis of the deposited data

How the results depend on the processing

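The precision is limited by 3 arrays a group and by a slide that holds controls 1 and 2 only. Against 3 genes called over all genes, 75th percentile scaling, normexp and the strict filter gave 1 each, no filter gave 5, slide as a fixed block 15, slide 2 alone 0 and the replicate block 0, and leaving out 1 array gave 1 to 50. The count of 50 was without control 3, where slide and group coincide. The main comparison did not pair mice by replicate number. The r of same-numbered deviations was 0.19, -0.32 and -0.20, which cannot settle pairing with 3 arrays a group. The counts of called genes among the other NADPH oxidase genes and the peroxide handling genes were 0 in every alternative run. That of the clock genes was 0 to 1 over arrays left out. Leaving out 1 array gave differences of -0.22 to 0.31 for Cyba, -0.64 to 0.21 for Cybb, -0.58 to 0.13 for Ncf1 and -0.031 to 0.40 for Nox4, each turning without control 3 (to -0.031 for Nox4), and that of Cyba also to 0.15 without MC-LR 1. Noxa1, Noxo1 and Ncf4 kept their direction in all 17 alternatives, with ranges of -3.15 to -0.97, -1.33 to -0.17 and -1.18 to -0.03. The neutrophil marker ratio went from -0.78 to -1.36 (log2) without MC-LR 2. For control 3 against controls 1 and 2, each of the 7 members kept its sign under the other scalings. The cause of these changes was not tested.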
